A study of Mus musculus with 12 samples.

Results

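Aortas of mice that received the dissection challenge together with rapamycin were set against aortas of mice that received only the vehicle, to see which genes were still away from the vehicle level while the drug was present. The comparison used 6 of the 12 arrays of the series, chosen by their treatment labels: 3 labelled beta-aminopropionitrile + angiotensin II + rapamycin (BA+rapamycin) and 3 labelled DMSO. All mice were C57BL/6J, the tissue was whole aorta, and the series record gives day 3. BA+rapamycin mice received beta-aminopropionitrile (BAPN) at 150 mg/kg/day, angiotensin II (AngII) at 1 µg/kg/min and rapamycin at 2 mg/kg/day in dimethylsulfoxide (DMSO). DMSO mice received that vehicle without challenge or drug, although the titles of this group begin with Pre, the study's word for the state before the challenge. The other 6 arrays, 3 labelled rapamycin and 3 labelled beta-aminopropionitrile + angiotensin II + DMSO (BA+DMSO), entered the model to estimate the spread, the choice of probes tested and the slide term, and are given beside single results. Each array held the RNA of 1 sample. Some titles within and across groups share a number that no source explains, and nothing else says whether replicates were handled separately, so the p-values measure only the spread between these samples. The study's methods describe young adult male mice.

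BAPN blocks lysyl oxidase, the enzyme that crosslinks collagen and elastin, and AngII acts on smooth muscle, fibroblasts and leukocytes. The combination is used to bring about aortic dissection in mice. Rapamycin binds FKBP12, and the pair inhibits mTOR complex 1, a kinase that drives protein synthesis, ribosome production and the entry of cells into the cell cycle. Aortic smooth muscle cells can leave a contractile state, in which they express contractile proteins, ion channels and receptors for vasoconstrictors, for a state in which they divide, migrate and make matrix.

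Values are log2 processed signal minus the 75th percentile of the array, so that 0 is a probe as bright as that percentile, and a difference of 1 between groups is 2-fold. The BA+rapamycin arrays were dimmer than the DMSO arrays: the percentile was 97.2 ± 19.6 against 256 ± 31.0 intensity units, and 43.6% ± 2.15 against 50.4% ± 2.11 of probes were well above background (mean ± SD, n = 3 each). Array pairs within a group correlated across probes at 0.974 to 0.982 in BA+rapamycin and at 0.987 to 0.990 in DMSO, and probes are not independent replicates. The 3 DMSO arrays lay on 1 slide and the 3 BA+rapamycin arrays on the other, so no slide held both groups, and slide and group cannot be told apart without the rapamycin arrays, the only group on both slides. The labelled tissue was borne out by markers of the aortic media, since Acta2, Tagln, Cnn1 and Smtn were at 9.83, 9.84, 9.39 and 8.05 in DMSO and at 10.27, 10.77, 9.18 and 7.46 in BA+rapamycin (group means). In whole tissue, fewer cells of a type and less RNA per cell cannot be told apart.

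With the drug present, a large part of the aortic transcriptome lay away from the vehicle level. Of 27801 tested probes, limma called 12914 (46.5%) at an adjusted p under 0.05, 6082 of them higher and 6832 lower in BA+rapamycin. The study's own rule of p under 0.01 with over 4-fold difference, applied here to the unadjusted p, kept 919 higher and 542 lower probes. On this scaling large differences were more often rises, since 99 called probes were over 16-fold higher and 12 over 16-fold lower. The balance under the study's rule turned with the scaling, to 768 higher and 1042 lower with quantile normalization, 804 and 1115 in the deposited matrix, and 467 and 1652 with scaling by the array median. With 1 probe per gene name, 2690 of 14290 genes were called higher (18.8%) and 4406 lower (30.8%), with a median difference of -0.24 over all genes and quartiles of -0.78 and 0.48. These shares and this median are the background for every gene list below. In each list, a gene detected in only 1 group could pass the filter, which favours members that are high there. At the other end, 4961 genes (34.7%) had a 95% confidence interval that lay wholly within 2-fold of the vehicle level. Of the probes, 8941 (32.2%) had an interval wholly within 2-fold, and 6962 uncalled probes were unsettled, with an interval reaching past it. These intervals use a spread pooled over all 4 groups. The median SD within a group was 0.155 in DMSO, 0.171 in rapamycin, 0.224 in BA+rapamycin and 0.502 in BA+DMSO. The widths therefore hold scatter of groups outside the comparison. A fit of the 6 arrays alone called 16521 of 26504 probes. Without DMSO replicate 2 the count of called probes was 7659.

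**Figure D1:**
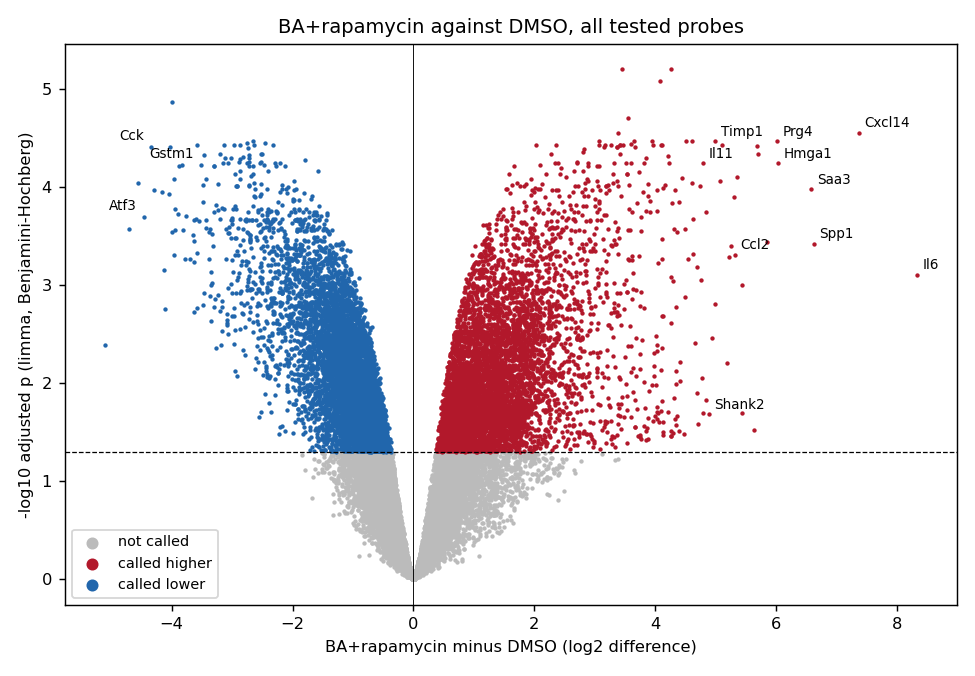
Each point is 1 of 27801 probes; the x axis is the log2 difference BA+rapamycin minus DMSO, the y axis is minus log10 of the limma adjusted p, and the dashed line is the 0.05 threshold. The right arm reaches farther than the left: Il6 lies at 8.33 and Cxcl14 at 7.38, while Kcnc4, the called probe farthest to the left, lies at -5.10.

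The choice of slide and scaling sets how much of this count can be read. With slide as a fixed term, which rests on the 3 rapamycin arrays alone, 225 probes were called, 134 higher and 91 lower, and 222 of these were also called without the term. With array brightness as a covariate 3192 probes were called, 2162 higher and 1030 lower. Whether slide or brightness accounts for the calls lost was not tested. Scaling by the array median in place of the 75th percentile moved the median of all genes from -0.24 to -0.83, and a 75th percentile taken over probes well above background on all 12 arrays moved it to -0.03. Differences near these shifts are therefore relative to the scaling. Against 7 control probes for spiked-in RNA, a fixed reference if each sample received the same amount, the 75th percentile was -3.10 ± 0.148 in DMSO and -4.86 ± 0.334 in BA+rapamycin on the log2 scale (SD, n = 3 each). Scaling to these probes would lower every difference by 1.76, and 1486 of the probes called higher exceed that size.

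Il6 had the largest measured rise of all called probes, and most genes of the interleukin-6 family list were above the vehicle level. These cytokines signal through a shared receptor chain to the transcription factor Stat3, which raises acute-phase and feedback genes. Of 21 tested members, 14 were called higher (66.7%) and 5 lower (23.8%), with a median of 1.98. That median stayed between 1.39 and 2.18 in all 30 settings tried. Il6, the cytokine itself (probe at chr5:30346367-30346426, mm9), read 2.85, 3.11 and 1.91 in BA+rapamycin and -6.20, -6.03 and -4.90 in DMSO. All 3 DMSO arrays were not well above background, so the difference is given as at least 103-fold (limma adjusted p 0.000786; measured log2 difference 8.33, SE 1.23). Il11, a cytokine of the same family made by stromal cells (chr7:4724847-4724906), read 1.6, 2.74 and 1.1 against -2.39, -3.23 and -3.30. The groups were apart by 4.79 (SE 0.415, adjusted p 5.77e-05).

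Other ligands lay on both sides. Lif, leukemia inhibitory factor, was at least 7.45-fold higher. Clcf1, a further ligand of the family, rose by 1.98, and the ligand cardiotrophin-1 (Ctf1) fell by 1.73. Among receptors the direction differed by gene: Il6ra (1.83) and Osmr (1.82) rose, while Il11ra1 (-0.58, with a near-identical copy in the mouse genome) and Lifr (-0.70) fell and the shared chain Il6st was not called at -0.47. Downstream, Stat3 rose by 1.36 (5.56, 5.38 and 5.40 against 3.94, 4.18 and 4.13) and Socs3, its feedback inhibitor, by 2.49. Lcn2 and Saa3, acute-phase genes, rose by 2.95 and by at least 27.2-fold, and Bcl3 and Pim1 rose by 2.92 and 2.13. The kinase gene Jak2 fell by 0.83 and Fgl2 by 1.83. Timp1, an inhibitor of matrix metalloproteinases that this family raises (chrX:20451802-20451861), read 7.82, 7.79 and 7.6 against 3.11, 2.61 and 2.50, a rise of 5.0 (SE 0.338, adjusted p 3.44e-05) with little spread in either group.

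Chemokines, which draw leukocytes into tissue, had no called fall: 13 of 18 tested were higher (72.2%) with a median of 1.6. The list holds 30 genes, and 15 of the 18 tested were above background on all 6 arrays. Cxcl14 (chr13:56390078-56390137) read 1.57, 1.78 and 1.51 in BA+rapamycin against -5.62, -5.96 and -5.69 in DMSO, where no array was well above background. That is at least 51.5-fold (adjusted p 2.82e-05). Ccl2, the main attractant of monocytes (chr11:81850650-81850709), read 2.85, 3.84 and 3.73 against -0.60, -1.99 and -2.96 and rose by 5.32 (SE 0.717, adjusted p 0.000491). Its neighbours on the chromosome Ccl7 and Ccl12 rose by 5.22 and 4.14. Cxcl1, an attractant of neutrophils, was at the edge of the threshold with 0.70 (adjusted p 0.0499), and Ccl11, Ccl24, Pf4, Ppbp and Cxcl12 were not called, between -0.37 and 0.63. Il1b was not tested because no group had it well above background on all 3 arrays.

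Of 19 genes of the interleukin-1, TNF and NF-kB pathway, 9 were higher (47.4%) and none lower. Median scaling called 4 higher and 2 lower, the slide term left no call at a median of 0.83 against 0.72, and 5 were higher without DMSO replicate 2. The 9 include the pattern-recognition molecule Ptx3 (4.01), the prostaglandin enzyme Ptgs2 (2.68) and the cytokine Il33 (2.67), while the receptor gene Il1r1 (-0.07), the subunit gene Rela (-0.16) and the inhibitor gene Tnfaip3 (-0.37) were not called. Leukocyte adhesion molecules had 6 of 11 higher (54.5%) and 1 lower. Vcam1, the endothelial and smooth muscle ligand for monocyte integrins, read 3.87, 3.79 and 4.01 against 2.72, 2.67 and 2.77 (difference 1.17, SE 0.284, adjusted p 0.00834), while Icam1 stood at 0.18 and was not called. Interferon-stimulated genes were mixed, with 7 of 24 higher (29.2%) and 4 lower (16.7%). These counts were 4 and 5 without BA+rapamycin replicate 1, and 3 and 3 without DMSO replicate 2. BA+rapamycin replicate 1 had a list median of 0.56, against 0.04 and 0.01 on the others of its group. Isg20 (2.10), Oas2 (1.65) and Rsad2 (1.49) rose, Ifit3 (-1.04) and Ifit2 (-0.83) fell, Cmpk2 was at least 2.48-fold lower, and the list median of 0.17 was below 0 when arrays were scaled by their median.

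Promoter sequences of Il6 and Cxcl1 are shown because they alone among the matched promoters of their lists hold a form of the NF-kB motif. They are the 250 bases before the start of transcription in the RefSeq table (GRCm38.p6), written 5′ to 3′, with capitals marking matches to that form, searched on both strands. Position -1 is the last base before the start. Il6 (+ strand, chr5:30012864-30013113) holds it at -44 and Cxcl1 (+ strand, chr5:90890995-90891244) at -71.
Il6: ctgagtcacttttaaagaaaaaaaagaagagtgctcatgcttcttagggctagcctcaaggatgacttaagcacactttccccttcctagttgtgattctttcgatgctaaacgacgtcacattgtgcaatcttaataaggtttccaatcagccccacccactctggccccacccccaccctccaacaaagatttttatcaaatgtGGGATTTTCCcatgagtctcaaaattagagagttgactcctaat
Cxcl1: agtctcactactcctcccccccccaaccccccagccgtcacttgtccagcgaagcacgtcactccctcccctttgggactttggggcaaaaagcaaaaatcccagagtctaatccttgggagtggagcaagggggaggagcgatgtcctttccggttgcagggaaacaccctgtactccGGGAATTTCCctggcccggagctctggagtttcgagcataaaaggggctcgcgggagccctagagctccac
The motif is in 1 of 19 matched promoters of the IL-6 list (5.26%), in 1 of 12 of the chemokine list (8.33%) and in 0.337% of 27025 genes. It is also in 1 of 29 mitosis promoters (3.45%). None of the matched replication, contractile, immediate early or oxidative phosphorylation promoters holds it. Each of the list shares above 0 rests on 1 gene. No other matched promoter of the IL-6 and chemokine lists holds the motif in this window, and a match is a description of sequence only.

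Markers of blood cells were high alongside these genes. Macrophage markers had 22 of 24 higher (91.7%) and 1 lower. Of the 24 tested, from a list of 25, 18 were above background on all 6 arrays. The list median was 2.10 to 2.16 on the 3 BA+rapamycin arrays and -0.43 to 0.69 on the 3 DMSO arrays. The monocyte receptor gene Ccr2 (1.48, 0.67 and 0.81 against -2.78, -4.57 and -3.58) rose by 4.63. Cd68 and Aif1 rose by 1.97 and 1.86, Folr2 was not called at 0.61, and Gpnmb was at least 2.21-fold lower. Neutrophil markers had 4 of 8 tested higher, among them Ly6g (1.42) and Fpr1. Their list holds 16 genes, and 6 of the 8 tested were above background on all 6 arrays. Median scaling and the slide term each called 1 higher. Quantile normalization called 2, as did leaving out BA+rapamycin replicate 2 or DMSO replicate 2. Fpr1 was detected above background by 2 of the 3 BA+rapamycin arrays and by no DMSO array, at least 4.64-fold higher, but S100a8 was not called (0.95, adjusted p 0.208). T and B cell markers had 6 of 11 higher, among them Cd22 (2.00) and Cd3e (0.76, 1.12 and 0.95 against -0.13, -0.36 and 0.05). Their list holds 23 genes, and 7 of the 11 tested were above background on all 6 arrays. Cd3d and Cd3g were not called, and no BA+rapamycin array had them well above background. Of T and B cell markers the slide term and brightness left none called, with a median of 0.17 under brightness, and median scaling called 2 higher and 2 lower. The part of leukocyte RNA in the cytokine and chemokine rises was not tested.

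Other cell types moved too. Erythroid genes, a sign of blood in the sample, had 6 of 7 higher, with list medians of 2.55 to 2.81 on the BA+rapamycin arrays and -1.25 to 0.84 on the DMSO arrays, and the rapamycin arrays without challenge also lay at 0.77 to 2.00. The beta-globin gene Hbb-b1, which has near-identical copies, rose by 3.18. Endothelial markers had 12 of 21 higher and none lower, led by Robo4 (1.65) and Kdr (1.55, a receptor for VEGF), while Pecam1 (-0.29), Tek (-0.62) and Cdh5 (0.72) were not called. BA+rapamycin replicate 3 stood apart, with a list median of 1.46 against 0.45 and 0.56 on the other arrays of its group, and without it 6 endothelial genes were higher and 2 lower. Median scaling called 3 higher and 3 lower, the brightness covariate 1 higher and the slide term none. Peripheral nerve genes had 10 of 19 higher and 3 lower, led by the neuronal tubulin gene Tubb3 (0.52, 0.15 and 0.44 against -3.24, -4.51 and -3.79). Median scaling called 4 nerve genes higher and 5 lower, brightness 2 and 0, and the slide term 1 and 0. Fat differed between arrays of the treated group: Adipoq read 3.69, -0.49 and 1.75 in BA+rapamycin against 0.51, -0.74 and -0.20, and 1 of 16 adipocyte genes was called higher and 3 lower, and 1 of 12 brown fat genes higher and 4 lower. Adipocyte genes called lower included Plin4 of the lipid droplet (-1.77), and brown fat genes called lower included Cidea (-2.39), while Ucp1 was not called (2.52, adjusted p 0.0597). Of genes that would come from adrenal, kidney, liver or mesothelial tissue 1 of 8 tested genes was higher, Aqp2 at 0.89. None was called without BA+rapamycin replicate 2, BA+rapamycin replicate 3 or DMSO replicate 2. The list median was 2.48 on BA+rapamycin replicate 3 against 0.001 and 0.30 on the others of its group. It was -0.93 to 0.97 on the DMSO arrays and 2.02 to 3.10 on the BA+DMSO arrays. Sarcomere genes of striated muscle had 6 of 33 higher and 7 lower, with falls of 3.90 for Mybpc2 and 3.79 for Casq1, and their list median ran from -0.94 to 1.01 over the BA+rapamycin arrays. The part of these cells in other results was not tested.

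Most tested genes of mitosis were above the vehicle level. Of 50 mitosis genes 34 were tested, 24 of them above background on all 6 arrays. The filter lets in a gene detected in only 1 group, which favours members that are high there. Of the 34 tested, 29 were called higher (85.3%) and 1 lower, with a median of 2.47. That median was 2.42 to 2.62 on each BA+rapamycin array and -0.02 to 0.00 on each DMSO array. Mki67, a marker of dividing cells, read 2.39, 2.02 and 2.20 against -1.08, -0.90 and -0.80, a rise of 3.13 (SE 0.392, adjusted p 0.000338). Ccnb1, the cyclin of mitotic entry, rose by 3.52, the spindle motor Kif20a by 3.27 and the survival and chromosome-passenger protein gene Birc5 by 3.08. Cdk1, the kinase of Ccnb1, was at least 3.18-fold higher. It was above background on 2 of 3 BA+rapamycin arrays and no DMSO array. Anln fell by 1.39, and Bub3, Smc2, Mad2l1 and Bub1b were not called. In the arrays of challenge without drug the same list had a median of 3.73 above DMSO, and the list medians of single arrays ran from 2.47 to 4.78 there, so the arrays of both challenged groups overlapped. Both medians are taken from the same DMSO arrays. For Mki67 the difference between the challenged groups was -1.18 (adjusted p 0.167). In the rapamycin arrays without challenge the median of the list was -0.68.

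Replication genes were split. Of 33 tested, 16 were higher (48.5%) and 2 lower, with a median of 0.65. Median scaling called 7 higher and 4 lower with a median of 0.06, and the slide term left no call at a median of 0.51. Uhrf1, which maintains DNA methylation, rose by 2.76, cyclin E1 (Ccne1) by 2.63, thymidine kinase (Tk1) by 2.26 and the licensing factor Cdt1 by 1.78. Mcm5 of the replicative helicase read 0.71, 0.14 and 0.82 against -0.73, -1.09 and -0.94 and rose by 1.48 (adjusted p 0.0106), while its partners Mcm2 (0.68), Mcm3 (0.61), Mcm6 (0.12) and Mcm4 (-0.43) were not called. The polymerase subunit genes Pola1 (-1.58) and Prim1 (-0.68) fell, and the sliding clamp gene Pcna stood at -0.69 without a call.

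Regulators of the first gap phase lay nearer the vehicle level and on both sides of it, with 3 of 18 higher and 6 lower. The transcription factor gene Myc (-0.76, 0.30 and -0.75 against -2.97, -3.02 and -3.34) rose by 2.70 and cyclin D1 (Ccnd1) by 1.62, and Cdkn2a, above background on 2 of 3 BA+rapamycin arrays and no DMSO array, was at least 2.89-fold higher. Cyclin D2 (Ccnd2) fell by 1.40, and the inhibitors of division Cdkn1b, Cdkn1c, Cdkn2b, Rb1 and Rbl2 fell by 0.61 to 1.31. With brightness 3 genes of the list were higher and 1 lower and the median turned from -0.13 to 0.49, and the slide term left no call. Cyclin D3, the readout of the study at the protein level, was close to the vehicle level: Ccnd3 read 4.95, 4.95 and 5.0 against 5.31, 5.27 and 5.31. Its difference of -0.33 was not called (SE 0.148, adjusted p 0.085), and a second, dimmer probe was called at -0.67 (adjusted p 0.0226).

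Promoters of mitotic entry genes are shown because many mitosis genes rose, with the same table, build and numbering. In Ccnb1 (- strand, chr13:100786487-100786736) capitals mark CCAAT, which is at -99 and -67, and in Cdk1 (- strand, chr10:69352913-69353162) they mark only TTTGAA, the cell cycle homology element, at -71 and -15.
Ccnb1: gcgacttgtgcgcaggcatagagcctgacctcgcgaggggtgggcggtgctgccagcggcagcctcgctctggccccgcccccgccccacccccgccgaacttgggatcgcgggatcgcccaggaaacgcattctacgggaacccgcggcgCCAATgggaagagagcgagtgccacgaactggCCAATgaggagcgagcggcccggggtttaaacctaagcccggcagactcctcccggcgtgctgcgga
Cdk1: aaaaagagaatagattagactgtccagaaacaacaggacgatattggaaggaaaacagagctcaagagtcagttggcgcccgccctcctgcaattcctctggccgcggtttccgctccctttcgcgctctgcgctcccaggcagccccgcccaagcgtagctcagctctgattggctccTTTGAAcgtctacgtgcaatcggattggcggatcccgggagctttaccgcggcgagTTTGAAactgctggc
CCAAT on either strand is in 21 of 29 matched mitosis promoters (72.4%) against 34.5% of all promoters of this length, 57.1% of replication promoters and 55.6% of contractile promoters, and TTTGAA in 9 of 29 (31.0%) against 16.3%. TTTGGCGC, a form of the E2F motif, is in none of the 29 and in 3 of 28 replication promoters against 0.437% of all, and 1 of those 3 belongs to Pola1, which fell.

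Contractile smooth muscle genes stayed below the vehicle level in part, while the smooth muscle myosin and actin genes were not called. Of 43 tested, 18 were lower (41.9%, against 30.8% of all genes) and 2 higher, with a median of -0.68 that was -0.78 to -0.60 on each BA+rapamycin array. Synpo2, an actin-binding protein of the contractile apparatus, read 3.03, 3.49 and 3.08 against 6.13, 6.41 and 6.10, and fell by 3.01 (SE 0.343, adjusted p 0.000218). Rgs5, a brake on receptor signalling in mural cells, fell by 2.84, the cGMP-dependent kinase gene Prkg1 by 2.40, the integrin gene Itga8 by 2.38 and the actin-nucleating protein gene Lmod1 by 2.21. The calcium-activated potassium channel genes Kcnma1 and Kcnmb1 fell by 2.02 and 1.31, and Srf, the transcription factor of contractile genes, by 1.79. By contrast the smooth muscle myosin gene Myh11 read 6.89, 7.17 and 7.47 against 7.2, 7.25 and 7.25. Its difference of -0.05 has a 95% interval from -1.12 to 1.02, and it is 0.15 with the percentile of detected probes and -1.44 with the brightness covariate (adjusted p 0.178), which lies outside that interval. Acta2, smooth muscle actin, stood at 0.45 (adjusted p 0.106) and was lower in place of higher, at -0.63, under quantile normalization, as well as -0.12 under cyclic loess and -0.14 with scaling by the median. Myocd, the coactivator of Srf, was not called at -0.35, and Tagln rose by 0.93. Genes of the cytoskeleton of dividing and migrating cells had 13 of 24 higher (54.2%) and 1 lower, among them the tubulin gene Tubb2b (2.50), Marcksl1 (1.68) and profilin (Pfn1, 1.42).

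The Srf promoter is shown because CArG boxes, the sites Srf itself reads, are a common element of contractile genes. In the 250 bases upstream (- strand, chr17:46556163-46556412, GRCm38.p6) capitals mark matches to the CArG box at -82 and -62.
Srf: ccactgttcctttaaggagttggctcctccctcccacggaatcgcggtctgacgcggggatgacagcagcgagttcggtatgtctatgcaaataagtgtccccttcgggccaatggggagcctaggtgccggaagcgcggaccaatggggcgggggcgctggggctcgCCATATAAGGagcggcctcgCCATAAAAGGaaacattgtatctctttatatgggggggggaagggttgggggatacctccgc
A CArG box on either strand is in 6 of 36 matched contractile promoters (16.7%) against 1.40% of all promoters of this length. The 6 are Fhl1, Fhl2, Ldb3, Myl9, Srf and Vcl, of which Ldb3 (-1.57) and Srf fell and the others were not called, between 0.01 and 0.78.

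Some ion channel and receptor genes of smooth muscle were among the largest falls. Kcnab1, a subunit of voltage-gated potassium channels (chr3:65181718-65181777), read 0.57, 0.57 and 0.40 against 4.52, 4.85 and 4.62, a fall of 4.15 (SE 0.417, adjusted p 0.000114). Kcnc4 was 5.10 lower (SE 1.06) as measured, but 1 of 3 BA+rapamycin arrays had it well above background, and it was not called with the slide term (-4.84, adjusted p 0.195) or the brightness covariate (-4.15, adjusted p 0.182). In the whole list 9 of 22 potassium channel genes were lower (40.9%) and 4 higher, and the list median of -0.49 turned to 0.21 with normexp background correction. In the renin-angiotensin and vasoconstrictor list 7 of 19 genes were lower (36.8%, against 30.8% of all genes) and 3 higher, with a median of -0.17. With normexp 7 of this list were higher and 6 lower. Among receptors of vasoconstrictors, Adra1d, the alpha-1D adrenergic receptor (chr2:131371198-131371257), read -3.36, -3.06 and -3.55 against 0.26, 0.98 and 0.29. No BA+rapamycin array had it above background, so it was at least 9.22-fold lower (adjusted p 6.05e-05). Adra2a, above background on 1 of 3 BA+rapamycin arrays, was 3.47 lower as measured. The serotonin receptor gene Htr2a fell by 2.59, the thromboxane receptor gene Tbxa2r by 1.85 and Agtr1a, the receptor for the infused AngII, by at least 2.26-fold (adjusted p 0.0164). Agtr1a was not called with the slide term (-1.82, adjusted p 0.301) or the brightness covariate (-0.25, adjusted p 0.856). The alpha-1B receptor gene Adra1b and Ece1, which activates endothelin, rose by 2.16 and 2.09, and the endothelin receptor gene Ednra stood at 0.04.

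Matrix genes lay on both sides of the vehicle level. Of 27 collagen genes 12 were higher (44.4%) and 6 lower. Fibril-forming and associated chains were among the rises, with Col1a1 (8.32, 8.53 and 8.33 against 6.98, 6.97 and 7.14) at 1.36, Col3a1 at 1.16, Col5a1 at 0.78 and Col12a1 at 2.33, and Col8a1 and Col15a1 rose most, by 4.11 and 3.92. The basement membrane chains Col4a3, Col4a5 and Col4a6 fell by 1.09, 1.33 and 1.15, Col6a2, Col23a1 and Col27a1 fell by 0.96, 0.84 and 1.03, and Col4a1 and Col4a2 were not called at -0.10 and 0.03. Under median scaling 4 collagen genes were called higher and 10 lower, so these counts are relative to the percentile.

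In the list of collagen crosslinking and folding, which holds lysyl oxidases, the targets of BAPN, beside lysyl hydroxylases and folding proteins, 9 of 23 genes were higher and 1 lower. The collagen lysyl hydroxylase gene Plod2 rose by 1.77 and Loxl4 by 1.36. Lox itself read 2.92, 3.46 and 2.78 against 2.14, 1.89 and 1.85, a difference of 1.09 that was not called on the brighter probe (adjusted p 0.0594) and was called on another probe at 1.27 (adjusted p 0.00532). Of 16 elastic fibre genes, Fbln2 (2.73), Ltbp2 (2.71), Emilin2 (1.29) and Fbln1 (0.92) rose, Fbln5 fell by 1.40, and Eln, elastin, was not called at -0.30 with an interval from -1.11 to 0.51. Under median scaling the medians of both lists were below 0.

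Spp1, osteopontin, read 2.01, 1.18 and 0.88 against -4.41, -5.81 and -5.60, at least 41.8-fold higher (adjusted p 0.00038). Among 30 matricellular and proteoglycan genes 11 were higher and 8 lower, but 7 and 11 with median scaling, 8 and 8 with quantile normalization or in the deposited matrix, and 0 and 2 with the slide term. Tnc, tenascin C, rose by 2.86 and Thbs1 by 2.62, the hyaluronan synthases Has1 and Has2 by 4.99 and 2.25, while Sparcl1 (-3.47), Omd (-3.20) and Ogn (-2.98) fell. Of metalloproteinases and inhibitors 7 of 22 were higher and 5 lower, with Adam12 (2.88), Mmp19 (2.79) and Mmp3 (1.89) up and Timp4 (-3.34) down. In the TGF-beta pathway 7 of 30 were higher and 9 lower. Median scaling called 2 and 15, the percentile of detected probes 8 and 6, brightness 2 and 2, and the slide term none. The ligand gene Tgfb1 rose by 1.19, while the receptor genes Tgfbr2, Tgfbr3 and Bmpr1a fell by 0.86, 1.24 and 2.10 and the inhibitor genes Smad6 and Smad7 by 1.22 and 0.98.

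**Figure D2:**
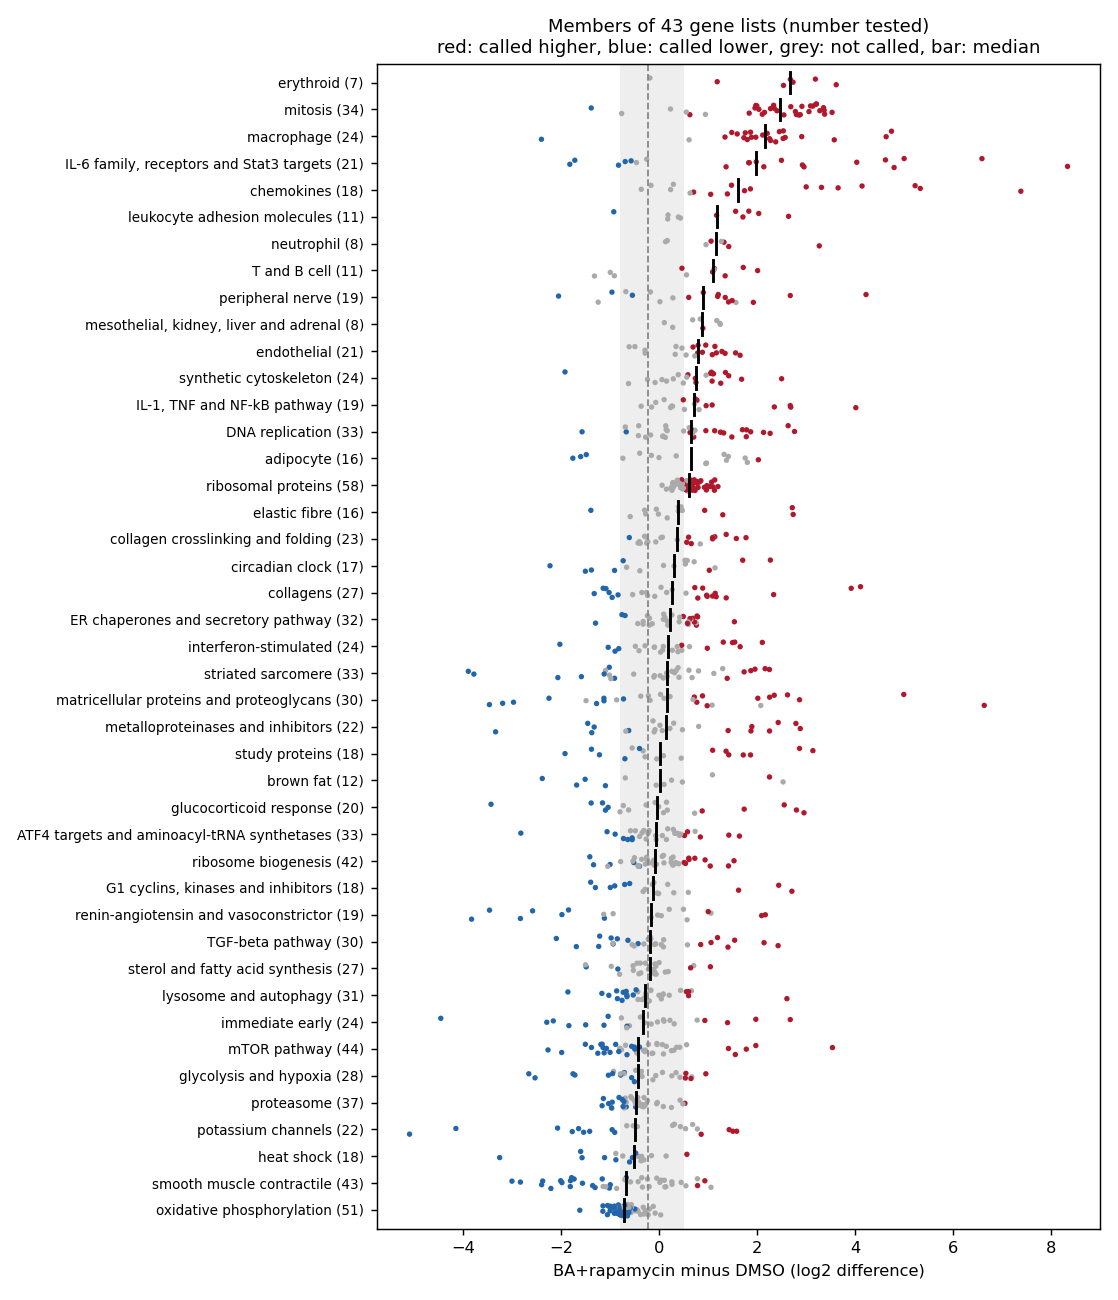
Each dot is a gene of 1 of 43 lists, placed on the x axis at its log2 difference BA+rapamycin minus DMSO; red and blue are called, grey is not, the bar is the list median, and the shaded band holds the middle of all genes from -0.78 to 0.48 around their median of -0.24. Erythroid (2.67), mitosis (2.47) and macrophage (2.16) medians lie farthest to the right, and oxidative phosphorylation (-0.73) and contractile genes (-0.68) farthest to the left.

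The mTOR pathway and the processes it drives are the direct reach of rapamycin, and their RNA levels are not a readout of kinase activity. Of 44 pathway genes 18 were lower (40.9%) and 5 higher, with a median of -0.43. This balance depended on the setting: 7 were higher and 11 lower with the percentile of detected probes, 4 higher and 1 lower with the brightness covariate, where the median was -0.12, and 1 higher and none lower with the slide term, where the median was -0.47. Mtor read -0.90, -0.98 and -1.09 against 0.41, 0.43 and 0.34 and fell by 1.39 (SE 0.246, adjusted p 0.00193), and its second probe stood at -0.98 without a call (adjusted p 0.151). Mtor was not called with the slide term (-1.43, adjusted p 0.142) or the brightness covariate (-0.72, adjusted p 0.156). In the challenge without drug the Mtor difference from DMSO was -1.27 (adjusted p 0.00613), with the same DMSO arrays. Genes of the amino acid sensors Rraga (-1.01), Rragc (-1.13) and Sesn3 (-1.99) fell. Rptor, the scaffold of complex 1, fell by 0.66, while Rictor of complex 2 stood at -0.33 without a call. The growth factor gene Igf1 (4.69, 5.04 and 5.07 against 1.88, 0.97 and 1.36) rose by 3.53, and Fkbp1a, which encodes FKBP12, rose by 1.41. The kinase substrates Rps6kb1 (0.08), Eif4ebp1 (0.29) and Rps6 (0.42) were not called, and another probe of Rps6kb1 was called at -0.72.

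Genes of oxidative phosphorylation were below the vehicle level in 31 of 51 cases (60.8%, against 30.8% of all genes) and in no case above it, with list medians of -0.77 to -0.61 on the BA+rapamycin arrays. Ndufb3 of complex I fell by 1.62 and Cox7c of complex IV by 1.15. With brightness as a covariate no member was called and the median was 0.02. Proteasome genes had 11 of 37 lower (29.7%) and 1 higher, a share near that of all genes, with Psmb7 (-1.17) and Psmc6 (-1.14) falling most. That count was 29 with median scaling and 0 with brightness, where the median turned to 0.16, and leaving out any 1 of the 6 arrays left 1 to 4 genes lower. Glycolysis and hypoxia genes had 10 of 28 lower and 4 higher, with Adm (-2.67), Egln3 (at least 1.6-fold lower), Pfkm (-1.76) and Bnip3 (-1.72) among the falls. The counts were 6 higher and 6 lower with the percentile of detected probes, 5 and 4 with brightness, and 0 and 16 with median scaling. Lysosome and autophagy genes had 12 of 31 lower and 4 higher, and the macrophage protease gene Ctss led the rises at 2.60. With brightness 5 were higher and none lower, the list median turned from -0.30 to 0.20, and the slide term left no call.

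Ribosomal protein genes showed how far a small difference depends on scaling: 38 of 58 were called higher (65.5%) with a median of 0.60, but quantile normalization called 3 higher with a median of -0.15 and median scaling called 1. Ribosome biogenesis genes had 9 of 42 higher and 5 lower, but 2 and 17 with median scaling and 4 and 7 with normexp, with Rrp1b at 1.52 and Utp15 at least 1.16-fold lower. Nucleolin (Ncl), a nucleolar protein, fell by 0.52. Chaperone and secretory pathway genes of the endoplasmic reticulum had 9 of 32 higher and 3 lower, with Hspa5 at 0.62. Median scaling called 1 higher and 6 lower, normexp 2 and 6, and leaving out BA+rapamycin replicate 3 gave 4 and 1. ATF4 targets had 5 of 33 higher and 7 lower, but 1 and 14 with median scaling and 3 and 3 without DMSO replicate 1 or 2, and the asparagine synthetase gene Asns rose by 1.63. Sterol and fatty acid synthesis had 2 of 27 genes higher and 2 lower, but 0 and 11 with median scaling, and Hmgcs1 of that pathway was not called at -0.46.

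Genes that respond within minutes to tissue handling or stress lay on both sides of the vehicle level, and about as many were not called as were. Atf3, a stress-response transcription factor (chr1:192994547-192994606), read -0.61, 1.45 and -0.71 against 4.50, 4.60 and 4.41 and fell by 4.46 (SE 0.501, adjusted p 0.000205). BA+rapamycin replicate 2 stood apart for it and for the heat shock gene Hspa1a, which has a near-identical copy and read -0.11, 2.59 and 0.11 against 3.30, 4.33 and 4.73. In the immediate early list 8 of 24 were lower and 4 higher: Fos (-2.30), Btg2 (-2.17) and Egr1 (-1.13) fell, and Egr2 (2.67), Junb (1.97) and Nr4a2 (1.39) rose. For this list median scaling called 13 lower and 3 higher, brightness 4 and 2, and the slide term none. Leaving out DMSO replicate 2 gave 4 lower and 3 higher. Of 18 heat shock genes 8 were lower and Hspa8 was higher. The lower calls numbered 15 with median scaling, 1 with brightness and none with the slide term, and 4 without BA+rapamycin replicate 3, DMSO replicate 2 or DMSO replicate 3. Clock genes had 3 of 17 higher and 5 lower, and Dbp, which cycles strongly with the time of day, was not called at 0.52. In the glucocorticoid list 5 of 20 were higher and 5 lower, with Klf15 down by 3.44 and Angptl4 up by 2.80. The hour of tissue collection is not given in the sources used here.

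Of 18 genes for the drug target mTOR and for proteins and markers that the study examined, 7 were higher and 5 lower. Tnc, Mki67, Stat3, Aif1, Ptprc (1.71), Ly6g and Cd3e were the rises. The nonmuscle myosin gene Myh10 (3.05, 2.61 and 2.98 against 4.79, 4.89 and 4.72) fell by 1.93 and Mapk9 by 0.70, besides Mtor. Akt2 was called at -0.41 (adjusted p 0.0396), a call lost in 16 of 29 other settings, and of its further probes those at -0.40 and -0.30 were not called while the dimmest was called at -1.90. Mapk8 was called lower, but no BA+rapamycin array had it well above background and its bound gave no fold. Akt1 (-0.29), Smad2 (-0.56), Ccnd3, Rps6kb1, Myh11 and Acta2 were not called. Mapk8 turned to 0.43 with normexp correction and a second probe of Mapk9 stood at 0.37 without a call, so their direction is uncertain.

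**Figure D3:**
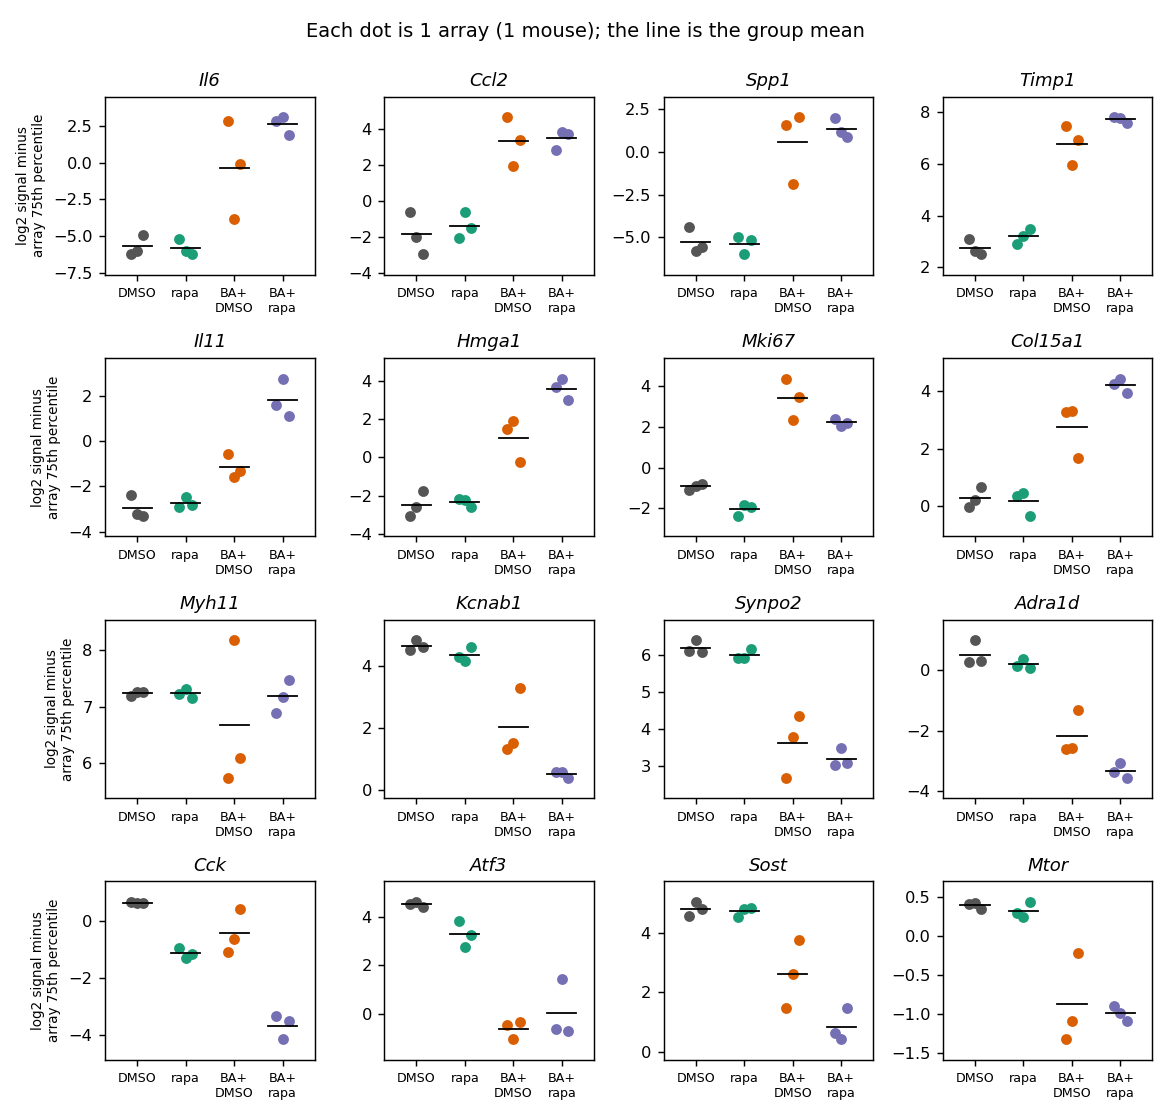
Each dot is 1 array and each line a group mean, in log2 signal minus the array 75th percentile, for 16 genes in DMSO, rapamycin, BA+DMSO and BA+rapamycin. For Il6, Timp1, Il11, Kcnab1, Cck and Mtor the BA+rapamycin and DMSO dots do not overlap, while those of Myh11 do. The groups do not overlap for 18971 of 27801 tested probes and for 98.9% of called probes. Non-overlap was also a condition for naming genes by size.

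The largest rises and falls were then read beside the other groups, which share the DMSO or the BA+rapamycin arrays. Of the 30 genes named for their size, 28 were also called in BA+DMSO minus DMSO, where 5697 of 27801 probes were called in all. The 30 were picked for large differences from the same DMSO arrays, so this count is not independent of the choice. Between BA+rapamycin and BA+DMSO 2 of the 30 were called, out of 78 probes called in all. Il11 was 2.99 higher in BA+rapamycin than in BA+DMSO (adjusted p 0.0196), with BA+DMSO arrays at -0.59, -1.58 and -1.34. Cck, cholecystokinin (chr9:121398943-121399002), read -3.35, -4.16 and -3.53 in BA+rapamycin and 0.69, 0.64 and 0.64 in DMSO, at least 10.2-fold lower (adjusted p 3.95e-05). Its BA+DMSO arrays read -1.08, -0.62 and 0.44, and against these it was at least 4.84-fold lower with the drug (adjusted p 0.00617). Its rapamycin arrays read -0.95, -1.28 and -1.15, also below every DMSO array.

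Further large rises were Hmga1, a chromatin protein with a near-identical copy in the mouse genome (6.04), Prg4, the lubricant lubricin (6.02), Esm1, a proteoglycan of activated endothelium (5.31), and Sirpb1a, a myeloid receptor of a family with similar copies (at least 20.9-fold). Shank2 and AU018091 (4.88 and 4.71) had standard errors of 1.47 and 1.5. In the brightest challenged array, BA+DMSO replicate 3, they were at -3.65 and -3.98, against 2.19 to 3.51 in the other BA+DMSO arrays, and with brightness as a covariate they were -0.95 and -1.18. Further falls were Unc5c, a netrin receptor (-4.04), Upb1, an enzyme of pyrimidine breakdown (-4.02), Bex4 (-3.97), Sost, the Wnt inhibitor sclerostin (0.63, 0.41 and 1.47 against 4.57, 5.03 and 4.78, -3.95), Emb (-3.69), Ccdc3 (-3.63) and the glutathione S-transferase gene Gstm1 (-3.51). The Gstm1 probe of highest mean, a different one, was at -2.71 (limma adjusted p 0.000719). Abra, an activator of Srf signalling, was at least 8.54-fold lower, Tbc1d9 at least 6.56-fold and Ppef1 at least 6.45-fold.

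With slide as a fixed term 12 of the 30 were still called and all 30 kept their sign. The 6 rises were Cxcl14 (6.95), Sirpb1a (6.32), Hmga1 (6.27), Prg4 (5.94), Timp1 (4.53) and Il11 (4.51). The 6 falls were Kcnab1 (-4.26), Cck (-4.07), Bex4 (-4.0), Adra1d (-3.91), Gstm1 (-3.50) and Upb1 (-3.44). Il6 was 9.22 under that term but its adjusted p was 0.0848. With the brightness covariate 26 of the 30 were called, the exceptions being Has1, Shank2, AU018091 and Tbc1d9, of which Has1 kept its size (5.01, adjusted p 0.0594). Of all 128 named genes that were called, 111 stayed called whichever 1 array was left out. Many were named for large differences, so this share does not stand for all calls. Over all called probes, the share kept ran from 59.1% without DMSO replicate 2 to 100% without BA+DMSO replicate 2. Shank2 and AU018091 were not called without BA+rapamycin replicate 2 or 3 or without DMSO replicate 1 or 2.

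**Figure D4:**
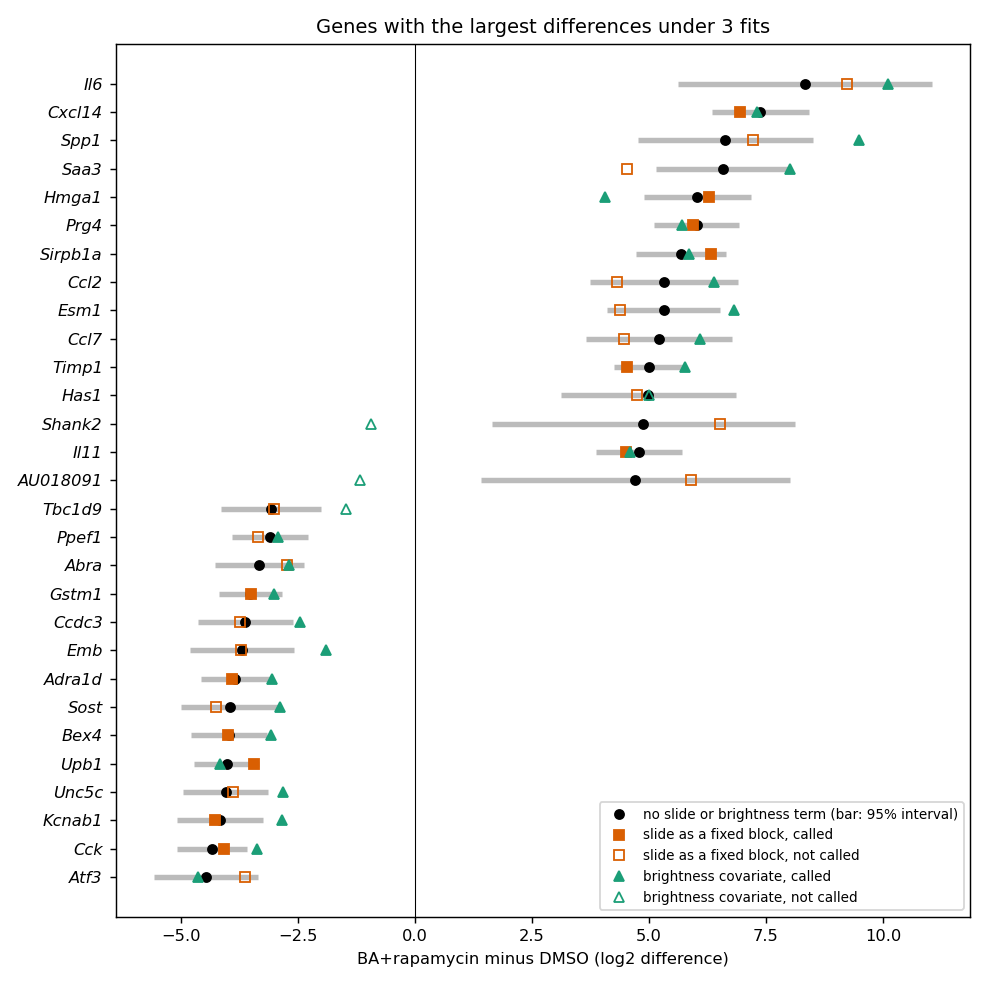
For 29 of the 30 genes of largest difference, the x axis is the log2 difference BA+rapamycin minus DMSO: black dots with 95% intervals come from the fit without either term, squares from slide as a fixed block and triangles from the brightness covariate, filled where called. Squares stay on the side of the black dots for all 29 genes, and the triangles of Shank2 (-0.95) and AU018091 (-1.18) cross 0.

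On the level of lists, the slide term left few calls, for example 4 in the IL-6 list, 3 among chemokines, 2 among elastic fibre genes and 1 each in mitosis and macrophage lists, and none in the contractile or oxidative phosphorylation lists. The medians were 2.08 for the IL-6 list, 1.56 for chemokines, 2.17 for mitosis, 1.68 for macrophages and -0.81 for contractile genes. Erythroid genes went from 2.67 to 1.6, T and B cell markers from 1.09 to 0.63, crosslinking enzymes from 0.37 to 0.07 and clock genes from 0.30 to -0.14. With the brightness covariate 27 mitosis, 19 macrophage and 9 chemokine genes were called higher and 3 contractile genes lower. Single arrays mattered as well. Leaving out DMSO replicate 2 cut the called members by over 1.5 times in 19 of 43 lists, DMSO replicate 1 in 11, and BA+rapamycin replicates 2 and 3 in 9 and 7. Called genes fell from 14 to 4 for glycolysis and hypoxia, from 12 to 1 for the proteasome and from 31 to 16 for oxidative phosphorylation without DMSO replicate 2. With any 1 of the 6 arrays left out, 26 to 29 mitosis, 17 to 19 IL-6 list, 19 to 23 macrophage, 11 to 12 chemokine and 14 to 20 contractile genes were called.

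**Figure D5:**
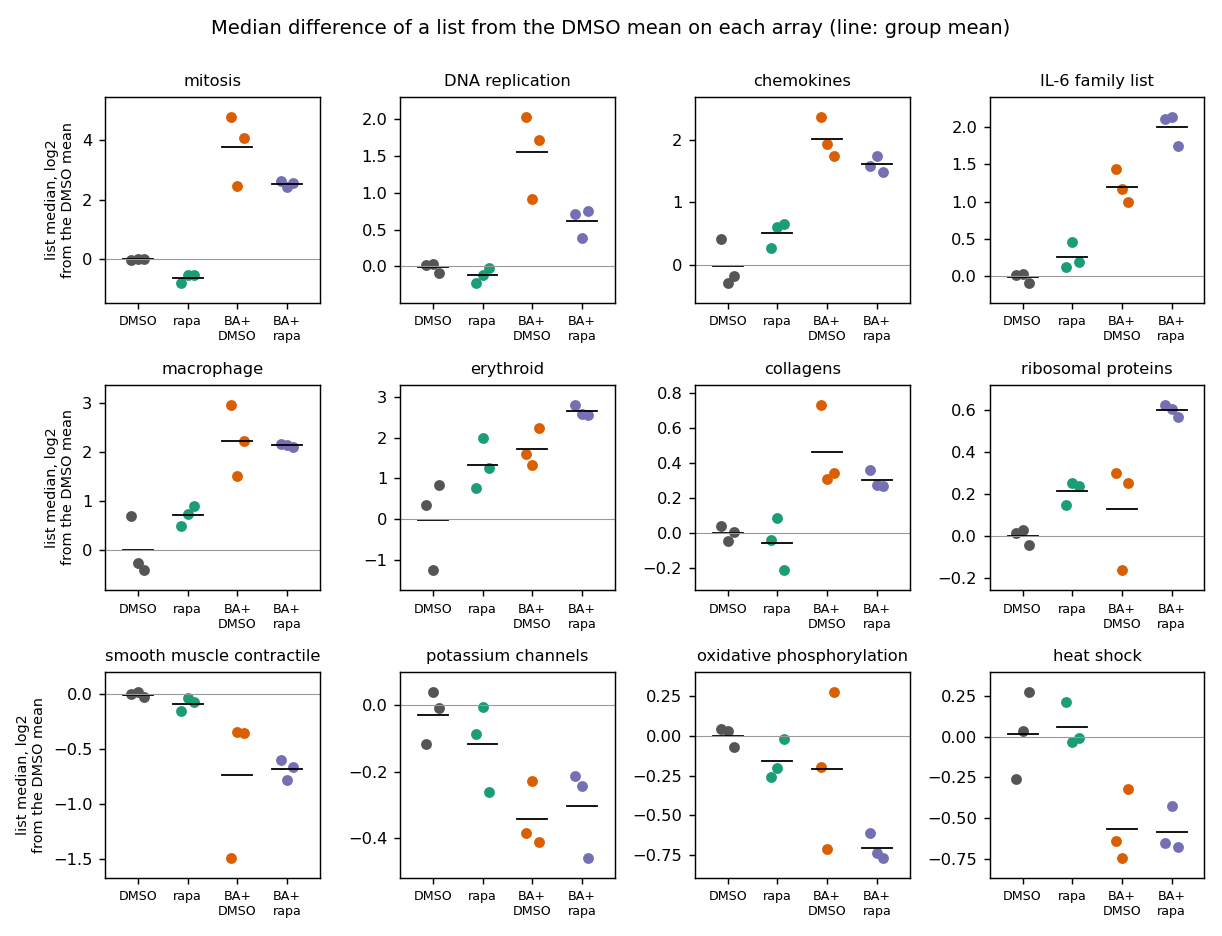
For 12 lists, each dot is the median log2 difference of the list from the DMSO mean on 1 array, in DMSO, rapamycin, BA+DMSO and BA+rapamycin, and lines are group means. The BA+rapamycin dots of mitosis lie at 2.42 to 2.62 and those of contractile genes at -0.78 to -0.60, away from the DMSO dots, and the BA+DMSO dots of mitosis spread from 2.47 to 4.78.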

How the data were processed

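RNA of mouse aorta was labelled with Cy3 and hybridised by the authors to 1-colour Agilent arrays, 12 arrays on 2 slides. Per the file headers, Feature Extraction 10.7.1.1 quantified the images, and probe positions refer to mm9; the submitters' processing notes give Agilent Feature Extraction 9.5.1.1. Each deposited scanner file holds 62976 spots, 3671 of them controls, with a processed intensity that is background-subtracted and linear, and mean and background intensities. Per the file headers, the remaining columns used are flags per spot for detection, saturation and outliers. The deposited matrix holds linear intensity whose values match a quantile normalization.

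Outlier spots were left out, log2 spot values averaged per probe, and the 75th percentile of each array subtracted. A probe was kept for testing where, in 1 or more groups, each of the 3 arrays showed 0.5 or more of the spots as well above background. No spot was saturated. All 12 arrays entered a limma 3.58.1 model (R 4.3.3) with 4 group means; the number of arrays limits precision. Tests were two-sided, Benjamini-Hochberg adjusted over 27801 probes, and called at an adjusted p under 0.05. For lists, the probe of highest mean represented its gene. A bound sets the mean of the detected group against, per array of the other, the higher of the probe's own signal and the lowest signal well above background.

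Genes named were, among called probes with non-overlapping groups, the 10 largest rises and falls with all 6 arrays above background, the 5 largest of each given as bounds, 2 per list, and a fixed set. A few genes that the rule or lists hold are not reported here. Other list members are given as examples, chosen after their values were seen. Samples were grouped by treatment label and numbered in deposition order. The comparison, its members, the 43 lists and the rule were chosen with earlier results of these data known, and the fit was tested on simulated data. Of 18192 RefSeq accessions among tested probes 17563 were in the RefSeq table, 1736 under another symbol, and 185 of 224 genes of 7 lists had a promoter there. Alternatives were other scalings, background correction, filters, slide, title number and brightness terms, and arrays left out. The coordinates given with mm9 are those of probes.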

Additional observations from a re-analysis of the deposited data

How the results depend on the processing

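The count of called probes was within 1.5 times of 12914 in 25 of 29 other settings. It was 29614 (23262 higher, 6352 lower) with no filter on dim probes, 3192 with the brightness covariate, 225 with slide as a fixed block, and 7659 to 17079 when 1 array was left out, lowest without DMSO replicate 2. Probes past the study's rule numbered 1461, against 432 with normexp background, 2508 with no filter, 817 with a filter on all 6 arrays and 966 with the slide block, and 1201 to 1690 with 1 array left out. Without all 3 BA+DMSO arrays, a setting chosen after seeing the data, 17743 probes were called, and with array weights 18734. The share of higher calls was 47.1%, but 17.4% with median scaling, 59.0% with the percentile of detected probes, 58.7% with normexp, 78.6% with no filter, 59.6% with the slide block and 67.7% with brightness.

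Acta2, not called in the report, was called lower at -0.63 under quantile normalization and -0.64 in the deposited matrix. Called values that changed sign were Mapk8 at 0.43, Utp15 at 0.31, Rragb at 0.24 and Egln3 at 0.007 with normexp; and Shank2 at -0.95, AU018091 at -1.18, Cd22 at -0.25, Rrp1b at -0.081 and Psmb7 at 0.41 with brightness. Uncalled values also turned, among them Eln to 1.04, Smad2 to 0.40, Akt1 to 0.30, Hmgcs1 to 0.36 and Rps6kb1 to -0.33 with brightness and Dbp to -1.76 with the slide block. Of 43 list medians 12 changed sign with brightness, 11 with median scaling, 7 with the percentile of detected probes, 6 with normexp and 3 with the slide block. The balance of higher and lower calls turned in 7 lists with brightness, among them ATF4 targets and clock genes, in 9 with median scaling, in 3 with the percentile of detected probes (ATF4 targets, TGF-beta and sarcomere) and in 4 with normexp, among them vasoconstrictor and sarcomere genes. The cause was not tested. Of 128 named genes that were called, 23 were called with the slide block and 79 with brightness. With 1 array left out, 111 of the 128 stayed called, against 59.1% of all called probes kept without DMSO replicate 2 alone. The other 17 included Agtr1a, Akt2, Aqp2, AU018091, Cd22, Cxcl1, Fos, Hspa5, Ly6g, Mapk8, Ncl, Psmb7, Ptgs2, Rrp1b, Sec24d and Shank2. Of the 17, 16 were lost without DMSO replicate 2. No paired analysis was possible because both groups have only 1 title number in common, that of DMSO replicate 1 and BA+rapamycin replicate 3, and numbers given in deposition order pair nothing. With the title number as a random block, at an estimated correlation of 0.496, 13728 probes were called. Between these 2 arrays that share it the median difference over all probes was -0.06, with no test.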

Other observations

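Genes in this paragraph and the next were picked after their values were seen, from probes called with and without the slide block. Of glutathione S-transferases, which detoxify lipid peroxidation products and drugs, 15 of 20 tested were lower, none was higher, and the median was -1.45. Gsto1, Gsto2, Gstp2, Mgst1 and Mgst2 were not called, between -0.41 and 0.17. The family was counted because members were already seen to be called, so the count is no test of it. All 7 Gstm genes were lower, although near-identical copies can share probe signal. Gstm3 read 0.80, 0.97 and 1.29 in BA+rapamycin against 3.83, 3.65 and 3.73 in DMSO, a fall of 2.72. Gstk1 of mitochondria and peroxisomes fell by 2.88. Single genes of mitochondrial enzymes picked in the same way were Aldh2 at -2.42, Aldh6a1 at -2.51, Abat at -2.72 and Maob at -2.27, and their families were not counted.

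Pappa2, a protease that frees IGF1 from its binding proteins, rose by 3.38, and Igf1 rose on each of 3 probes (3.32 to 3.56). Pappa2 was also 2.29 higher in BA+rapamycin than in BA+DMSO (adjusted p 0.00546 by limma). The small leucine-rich proteins Ogn, Omd and Ecm2, neighbours on chromosome 13, fell by 2.98, 3.20 and 3.12. Gucy1a3, a subunit of the nitric oxide receptor of smooth muscle, read 2.49, 2.24 and 2.37 against 5.28, 5.43 and 5.17 and fell by 2.93.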
